A study of Mus musculus with 16 samples.

Results

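Ion pumps, ion channels and aquaporins were followed in the kidneys of 4 male Pept2-/- mice, each set against 1 RNA pool of 5 wild-type kidneys. Members were taken by a rule on gene symbols, written with earlier results of these data known: aquaporins (Aqp), the sodium-potassium, calcium and hydrogen-potassium ATPases (Atp1, Atp2, Atp4), the vacuolar proton pump (Atp6), ClC and CLIC genes, potassium, sodium and calcium channel genes (Kcn, Scn, Cacn), TRP channels and the FXYD regulators. The arrays held 94 such genes (114 probes that name 1 gene), and 57 of them (64 probes, 60.6% of the genes) had a value in both dye orientations of every mouse, among 6191 genes measured in that way. The 16 proton pump genes and Aqp2 were described apart from the other members. The remaining 37 genes had no single probe with a value in both orientations of every mouse. They were Aqp8, Atp1b2, Atp2b2, Atp2c2, Clcn7, Clic1, Fxyd5 and Scnm1 (a gene caught by its symbol only). The rest were 5 TRP genes, 9 calcium channel genes and 15 potassium channel genes.

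Pept2 (Slc15a2) is the proton-coupled transporter that takes up dipeptides and tripeptides from the filtrate in the proximal tubule. Knockout and wild-type males carried a mixed genetic background (C57BL/6 with 129Sv), came from a heterozygous line bred to give litters of either homozygous genotype, and were 88 ± 2 days old. The right kidney was used. Each knockout kidney was hybridised on 4 spotted cDNA arrays against the wild-type pool, with the knockout RNA in channel 1 on 2 arrays and in channel 2 on the other two. Single wild-type animals were not hybridised, so the spread among wild-type mice is missing from every test, and what is called a difference from the pool also holds the makeup of that pool.

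The kidney tubule moves salt, water and acid with a small set of pumps and pores. The sodium-potassium ATPase in the basolateral membrane sets the sodium gradient that drives most transport, and FXYD proteins tune it. The vacuolar proton pump joins a cytosolic V1 sector, which hydrolyses ATP, to a membrane V0 sector, which carries protons. It acidifies endosomes and lysosomes in every cell and secretes acid across the apical membrane of intercalated cells. Aqp2 is the water channel of collecting duct principal cells, where vasopressin acts through cyclic AMP to move it to the apical membrane and to raise its transcription. ClC proteins such as Clcn5 serve endosomal acidification in the proximal tubule.

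The promoters of 4 members are shown because the results turn on them: Aqp2 has the largest mean ratio, Atp6v1d and Kcnk5 differed between the knockout mice, and Atp6v1e1 is a V1 gene that went the same way in those mice without passing the test. Each window covers 300 bases around the start of the gene, from RefSeq on GRCm38.p6: chr15:99578806-99579105 on the plus strand for Aqp2, and on the minus strand chr12:78861589-78861888 for Atp6v1d, chr6:120822649-120822948 for Atp6v1e1 and chr14:20181733-20182032 for Kcnk5. Capitals mark matches to 6 motifs searched on both strands: CACGTG, the E-box; TGACG, the core of the cyclic AMP response element; GATAAG, the GATA factor motif; TATAAA, the TATA box; GGGCGG, the GC box; and TAAACA, the forkhead motif. A match describes the letters only.
Aqp2 promoter: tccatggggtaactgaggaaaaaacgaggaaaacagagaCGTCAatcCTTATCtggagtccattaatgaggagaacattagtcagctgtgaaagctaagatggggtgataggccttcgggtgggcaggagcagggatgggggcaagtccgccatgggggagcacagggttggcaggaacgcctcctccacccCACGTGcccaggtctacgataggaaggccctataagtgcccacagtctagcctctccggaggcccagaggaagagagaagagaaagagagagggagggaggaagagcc
Atp6v1d promoter: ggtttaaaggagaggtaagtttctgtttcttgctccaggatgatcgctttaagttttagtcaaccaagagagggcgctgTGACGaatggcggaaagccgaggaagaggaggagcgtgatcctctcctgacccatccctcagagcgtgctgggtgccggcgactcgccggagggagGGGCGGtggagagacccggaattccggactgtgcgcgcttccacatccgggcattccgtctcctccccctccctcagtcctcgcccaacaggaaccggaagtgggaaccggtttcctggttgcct
Atp6v1e1 promoter: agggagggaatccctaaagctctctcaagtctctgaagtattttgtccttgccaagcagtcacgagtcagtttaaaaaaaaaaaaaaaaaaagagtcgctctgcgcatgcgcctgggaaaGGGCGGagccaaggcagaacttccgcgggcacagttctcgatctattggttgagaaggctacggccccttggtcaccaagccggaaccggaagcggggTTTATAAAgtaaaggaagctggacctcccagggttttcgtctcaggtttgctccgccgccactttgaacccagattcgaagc
Kcnk5 promoter: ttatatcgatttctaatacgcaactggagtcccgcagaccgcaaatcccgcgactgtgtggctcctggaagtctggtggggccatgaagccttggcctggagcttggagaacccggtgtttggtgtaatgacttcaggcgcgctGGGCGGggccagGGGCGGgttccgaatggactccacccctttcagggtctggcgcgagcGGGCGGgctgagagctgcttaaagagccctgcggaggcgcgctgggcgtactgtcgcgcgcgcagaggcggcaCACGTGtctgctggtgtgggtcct
The Aqp2 window holds CACGTG at -58, TGACG read on the other strand at -211 and GATAAG read on the other strand at -203 from the start. Atp6v1d has TGACG at -171 and GGGCGG at -75. Atp6v1e1 has GGGCGG at -130 and TATAAA on both strands, overlapping at -32 and -30. Kcnk5 holds GGGCGG at -106, -94 and -47 and CACGTG at 27 bases past the start. Of 32851 RefSeq windows of this length, 7.15% held the E-box, 20.8% the cyclic AMP core, 7.44% the GATA motif, 13.6% the TATA box, 35.7% the GC box and 13.4% the forkhead motif. A window was found for 47 of the 57 measured members, and 11 of them held the E-box, 16 the cyclic AMP core, 2 the GATA motif, 5 the TATA box, 30 the GC box and 1 the forkhead motif. Among the 12 proton pump genes with a window, 9 held the GC box, 5 the cyclic AMP core, 3 the E-box, 1 the TATA box and 0 the GATA or forkhead motif. A gene was counted if any of its windows held the motif, so these counts are not directly comparable with the percentages of windows.

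The deposited values were log2 ratios of the 2 channels, with the direction not stated. Channel 1 was taken as the numerator, which is likely but not certain, because Slc15a2 was then lower in the knockout on all 16 arrays (log2 ratio -2.17, -2.74, -2.81 and -2.33 in mice 1 to 4). Under the opposite reading every direction given here is exchanged. Arrays carried a value on 10134 to 18400 of 20205 probes (50.2% to 91.1%), and 30 of the 57 members had one on all 16. Across genes, which are not independent replicates, the values of mice 3 and 4 correlated at 0.63 and those of the other pairs at 0.14 to 0.26. The highest correlation between arrays of different mice, 0.62, joined array 3 of mouse 3 and array 1 of mouse 4, so results that rest on these mice are also given without those arrays. Svs5, a seminal vesicle gene, read 0.21, -0.092, 4.94 and 1.09 in the kidneys of mice 1 to 4 (limma F test adjusted p = 2.2e-05). Arrays of 1 mouse are technical repeats, so n was 4 mice.

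None of the 57 members passed the test against the wild-type pool (limma, Benjamini-Hochberg adjusted p under 0.05), where 13 of 6191 genes, 0.210%, passed (0.0646% higher and 0.145% lower). The smallest adjusted p among members was 0.145, for Aqp2. At an unadjusted p under 0.05 limma counted 8 members, 3 higher and 5 lower in knockout kidneys, beside 16.8% of all genes (6.80% higher and 10.0% lower). Leaving out mouse 4 moved the 8 to 3, and leaving out mouse 2 to 16. The shares of all genes in those fits were not counted, so these moves cannot be told apart from a shift over all genes. With all 16 arrays and the mouse as a random block, limma called 4 of the 57 members and 467 of the 6191 genes. Aqp2 and Scn2b were called as higher, and Clcn4 and Clcn5 as lower. That fit had no dye term. Its within-mouse correlation was 0.014, so technical repeats counted almost as separate mice. All but 2 of the 57 mean log2 ratios lay within 0.2 of 0, and the median half-width of the 95% interval was 0.128, which is the precision that 4 mice gave. The median of the members was 0.0076 and that of all genes -0.0038. Above 0 in all 4 mice were 5 members (11.4% of all genes), and below 0 in all 4 were 7 (14.3% of all genes).

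Aqp2 was the member whose mean departed most from the pool, and its value over both orientations was above 0 in every mouse. Its log2 ratio was 0.13, 0.21, 0.28 and 0.46 in mice 1, 2, 3 and 4. The mean was 0.27 ± 0.14 (SD, n = 4 mice), 1.21-fold, with a 95% interval of 0.13 to 0.41. The adjusted p of limma was 0.145, and the exact sign-flip permutation test over the 4 mice gave a two-sided p of 0.125, the smallest it can give. Of the 16 arrays, 13 were above 0. The mean was 0.47 with the knockout RNA in channel 1 and 0.074 with it in channel 2. It thus rested mostly on 1 orientation. The limma dye test gave an unadjusted p of 0.0031 and an adjusted p of 0.159, and no gene of the 6191 passed it after adjustment. In channel 2 the arrays read -0.037 and 0.016 in mouse 1, and -0.18 and 0.12 in mouse 2. Those of mouse 3 read 0.19 and 0.19, and those of mouse 4 read 0.57 and -0.27. The single arrays ran from -0.27 to 1.22, both extremes in mouse 4, as the plot of single arrays shows. In the kidney as a whole, a change in the number of cells of a type and a change in RNA per cell cannot be told apart. Of 12 other principal cell marker genes, 4 were measured, and all had means above 0, with per-mouse medians of 0.12, -0.027, 0.24 and 0.13. These are Hsd11b2, which protects the mineralocorticoid receptor from glucocorticoids, Krt18, Gata3 and Fxyd4. Their median was 0.14 with the knockout RNA in channel 1 and 0.046 with it in channel 2. In channel 2, Gata3 (-0.054) and Fxyd4 (-0.0055) were below 0, and Hsd11b2 (0.098) and Krt18 (0.18) above. The part of these markers in the Aqp2 ratio was not tested.

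**Figure D1:**
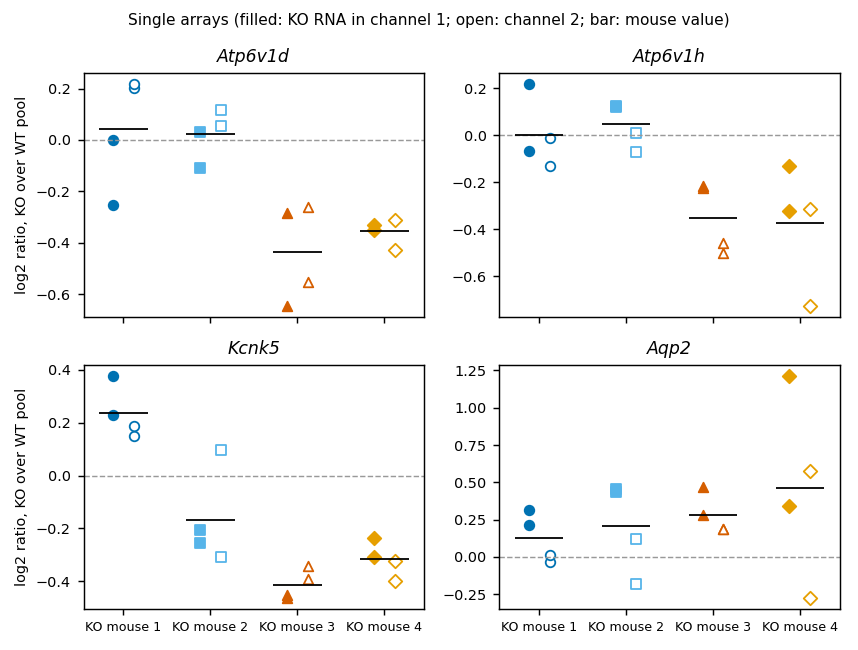
Log2 ratio of knockout kidney over wild-type pool (vertical axis) on single arrays of each mouse for Atp6v1d, Atp6v1h, Kcnk5 and Aqp2. Filled symbols have the knockout RNA in channel 1, open ones in channel 2, and the bar is the mouse value. All 8 arrays of mice 3 and 4 lie below 0 for Atp6v1d, Atp6v1h and Kcnk5, while the Aqp2 arrays of mouse 4 span -0.27 to 1.22.

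The other 5 aquaporins stayed close to 0. Aqp6, an intracellular channel of intercalated cells, was above 0 in all 4 mice (0.038, 0.12, 0.0069 and 0.041), with a mean of 0.052 ± 0.048 (SD, n = 4). Aqp1, the constitutive water channel of the proximal tubule and thin limb, had a mean of 0.033 ± 0.093 and was above 0 in 2 mice. It was 0.15 with the knockout RNA in channel 1 and -0.088 in channel 2. Aqp7, an aquaglyceroporin of the proximal tubule, averaged 0.020 ± 0.10. Aqp11 and Aqp5 averaged 0.0010 and -0.018. None of these 5 passed the test against the pool.

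The proton pump genes, 16 in all, had a median of -0.035, with 6 means above 0 and 10 below, and none passed the test against the pool. By sector, 9 of the 10 V1 genes had means below 0, with a median of -0.066, while 4 of the 5 V0 genes had means above 0, with a median of 0.022. The V1 count includes Atp6v1c2, whose mean lay above 0 without centring, and Atp6v1e1, which like Atp6v1c2 lay above 0 with arrays scaled to one spread. Leaving out 1 mouse moved the V1 median between -0.031 without mouse 3 and -0.11 without mouse 2, and the median of all 16 genes between -0.016 and -0.068 without the same mice. Of all genes, 51.8% had a mean below 0 and 48.2% above 0, and the difference between the sectors was not tested. The lowest V1 means were those of Atp6v1d (-0.18 ± 0.25), Atp6v1h (-0.17 ± 0.22), Atp6v1g3 (-0.12 ± 0.12) and Atp6v1g2 (-0.11 ± 0.16; SD, n = 4 for each). Subunits D and G form the central and outer stalks, and H regulates the coupling of the sectors. Only Atp6v1f, another rotor subunit, had a V1 mean above 0 (0.016 ± 0.073). The catalytic A subunit (Atp6v1a) was below 0 in all 4 mice at a mean of -0.049 ± 0.032.

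The other V1 genes, Atp6v1b2, Atp6v1c1, Atp6v1c2 and Atp6v1e1, had means of -0.051, -0.082, -0.0052 and -0.021. Of the V0 genes, Atp6v0a2, which encodes a membrane subunit of Golgi and endosomal pumps, was the only one below 0 in all 4 mice (-0.20, -0.034, -0.090 and -0.18). Its mean was -0.13 ± 0.077 (SD, n = 4) and its 2 measured probes averaged -0.15 and -0.10. In mouse 2 these probes differed in sign, at -0.17 and 0.10. The other V0 genes, Atp6v0a1, Atp6v0e2, Atp6v0d1 and Atp6v0b, had means of 0.043, 0.034, 0.022 and 0.012. The accessory subunit Atp6ap1 was above 0 in every mouse (0.052, 0.019, 0.19 and 0.17), with a mean of 0.11 ± 0.085. None of the 16 passed the test against the pool, and probes of paralogous subunits may cross-hybridise, which was not tested.

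**Figure D2:**
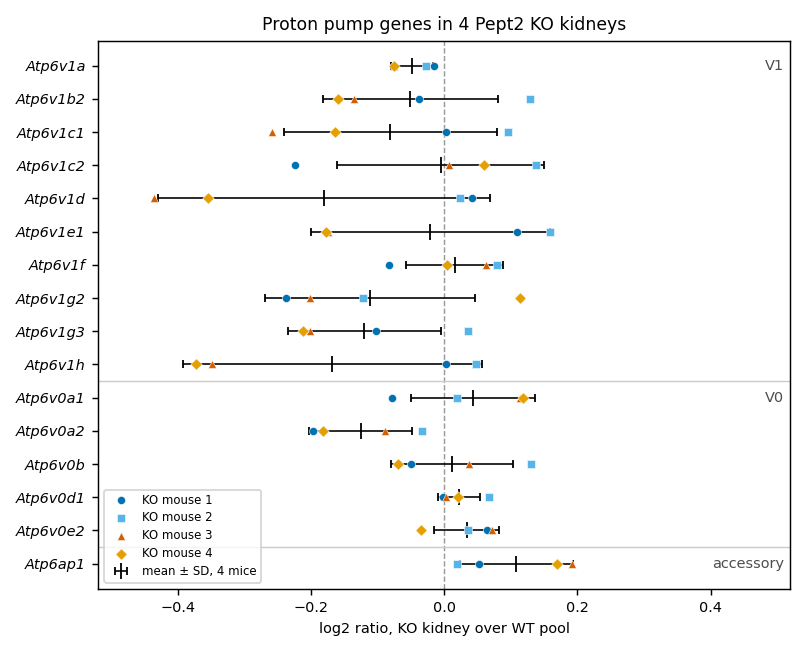
Log2 ratio of knockout kidney over wild-type pool (horizontal axis) for the 16 proton pump genes, by sector. Symbols are the 4 mice and bars are the mean ± SD of the mice. Mice 3 and 4 lie lowest for Atp6v1d and Atp6v1h, and the V0 genes sit between -0.20 and 0.13.

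The V1 ratios varied among the knockout mice. Their median was -0.026, 0.063, -0.19 and -0.16 in mice 1 to 4, while the V0 medians were -0.050, 0.035, 0.038 and -0.036. On every one of the 8 arrays of mice 3 and 4 the V1 median was below 0, from -0.32 to -0.018, in both dye orientations. The V0 medians of the same arrays ran from -0.22 to 0.20. Those of the members outside the proton pump were -0.15 on array 1 of mouse 3, as for V1, and -0.052 to 0.087 on the rest. In mouse 1 the V1 medians of arrays 1 to 4 were -0.049, -0.072, 0.0015 and 0.024. In mouse 2 they were above 0, from 0.0073 to 0.12. The lowest pair of values was that of mice 3 and 4 in 7 of the 10 V1 genes (A, B2, C1, D, E1, G3 and H), in none of the 5 V0 genes, in 14 of the 41 other members and in 27.6% of all genes. The highest pair was that of mice 3 and 4 in 0, 1 and 12 of these genes, and in 24.8% of all genes. Such counts take the order only, not the size of the difference. Among the 7 V1 genes, C1, D, E1 and H had an unadjusted p under 0.05 in the limma F test between mice. In the same limma test B2, G3 and A had an unadjusted p of 0.053, 0.55 and 0.94. Without the 2 arrays named above, the V1 medians of mice 3 and 4 were -0.20 and -0.16. Mice 3 and 4 were also those with the highest Svs5 ratios. Spink1, the other measured gene of the seminal vesicle and epididymis list, was -0.43, -0.16, -0.046 and -0.17 in mice 1 to 4. The part of admixed tissue in the V1 ratios was not tested.

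**Figure D3:**
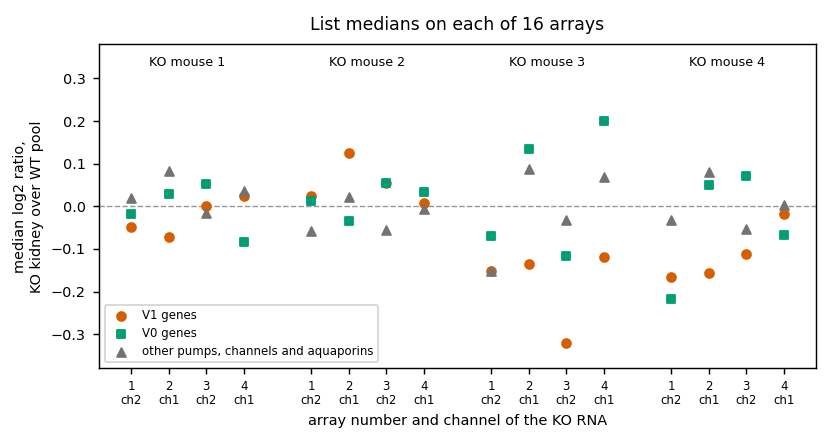
Median log2 ratio of knockout over wild-type pool (vertical axis) on each of 16 arrays, for the V1 genes, the V0 genes and the other members. The horizontal axis gives the array number and the channel of the knockout RNA. The V1 medians of the 8 arrays of mice 3 and 4 all lie below 0, from -0.32 to -0.018. Those of arrays 1 and 2 of mouse 1 also lie below 0.

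A moderated F test on the 16 arrays asked which members differed between the 4 knockout mice. In this test the shared wild-type pool cancels, and array repeats stand for technical spread, so it compares these 4 animals. It called 3 of the 57 members (limma, adjusted p under 0.05), beside 157 of 6191 genes, 2.54%. At an unadjusted p under 0.05 it counted 10 members (17.5%), beside 13.6% of all genes. Atp6v1d read 0.042, 0.024, -0.44 and -0.36 in mice 1 to 4 (limma adjusted p = 0.0199). Atp6v1h read 0.0030, 0.047, -0.35 and -0.37 in mice 1 to 4 (limma adjusted p = 0.0257). In both genes mice 3 and 4 lay well below the other pair. Kcnk5, an alkali-activated potassium channel that takes part in bicarbonate recovery in the proximal tubule, was 0.24 in mouse 1, against -0.17, -0.41 and -0.32 in mice 2, 3 and 4 (limma adjusted p = 0.0031).

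Of these 3, Kcnk5 was called with and without the 2 most correlated arrays, at limma adjusted p = 0.0139 without them. Atp6v1d and Atp6v1h then gave 0.093 and 0.066, with values of -0.36 and -0.38 in mice 3 and 4 for Atp6v1d and -0.36 and -0.27 for Atp6v1h. With each mouse left out in turn the limma adjusted p ran from 0.0532 to 0.124 for Atp6v1d, and from 0.0386 without mouse 4 to 0.197 without mouse 2 for Atp6v1h. Leaving out mouse 1 took Kcnk5 to a limma adjusted p of 0.489. A pair of intercalated cell genes, picked with their values in view, also lay lowest in mice 3 and 4. Foxi1, the transcription factor of that cell type, was 0.41, 0.29, -0.40 and -0.21 in mice 1 to 4 (limma F test adjusted p = 0.00074). Car2, a cytosolic carbonic anhydrase, was 0.21, 0.26, -0.20 and -0.17 (limma F test adjusted p = 0.0407). Without the 2 arrays, mice 3 and 4 read -0.47 and -0.30 for Foxi1 (limma adjusted p = 0.00082) and -0.17 and -0.096 for Car2 (0.141). The Car2 call was also lost without mouse 1, 2 or 3 (limma adjusted p of 0.128, 0.203 and 0.175) and over probes with at least 1 value in every mouse (0.0616). Over all 8 measured intercalated cell markers of 11 listed, these included, the per-mouse medians were 0.057, 0.096, 0.070 and -0.0028. Mice 3 and 4 held the lowest pair in 3 of these 8 genes and the highest pair in 2, beside 27.6% and 24.8% of all genes. Rhbg, an ammonia channel of these cells, was -0.13, 0.043, 0.39 and 0.34. Their part in the V1 ratios was not tested.

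The sodium-potassium ATPase genes had means below 0 in all 3 measured members. The beta subunits are the ones that carry the pump to the membrane. Atp1b3 was -0.071, -0.058, -0.22 and -0.24 in mice 1 to 4, with a mean of -0.15 ± 0.095 (SD, n = 4), and its 2 probes averaged -0.20 and -0.097. Atp1b1, the main kidney beta subunit, was -0.022, -0.090, -0.17 and -0.12, with a mean of -0.10 ± 0.062. Both genes were below 0 in every mouse, and neither passed the test against the pool. The alpha subunit Atp1a4, known from sperm, averaged -0.028 ± 0.094. All 4 measured FXYD regulators had means above 0: Fxyd6 at 0.10, Fxyd2, the gamma subunit of the kidney pump, at 0.083, Fxyd1 at 0.068 and Fxyd4 at 0.055. With the knockout RNA in channel 2, Fxyd1 and Fxyd4 were -0.070 and -0.0055, and no FXYD gene passed the test.

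Among the calcium ATPases, Atp2a2, the pump of the endoplasmic reticulum, was 0.15 in mouse 1, against -0.13, -0.32 and -0.19 in mice 2 to 4. Its mean was -0.12 ± 0.20, and its F test gave a limma adjusted p of 0.116. Atp2a1, a muscle form, averaged 0.092 ± 0.12, and the plasma membrane pumps Atp2b4 and Atp2b1 averaged 0.027 and -0.0071. Atp4a, the hydrogen-potassium ATPase alpha subunit of stomach and collecting duct, was 0.11, -0.030, 0.26 and 0.28 in mice 1 to 4, with a mean of 0.16 ± 0.14 (SD, n = 4; limma adjusted p = 0.259). It was 0.30 with the knockout RNA in channel 1 and 0.0073 with it in channel 2, so it rested on 1 orientation.

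The 3 measured ClC genes were below 0 in every knockout mouse, the one family in which all measured members were. Clcn3, of endosomes and synaptic vesicles, was -0.081, -0.044, -0.45 and -0.19, with a mean of -0.19 ± 0.19 (SD, n = 4), 1.14-fold lower. Clcn4, also an endosomal exchanger, was -0.13, -0.079, -0.14 and -0.38, with a mean of -0.18 ± 0.13. Clcn5, which loses function in human Dent disease, was -0.089, -0.076, -0.33 and -0.19, with a mean of -0.17 ± 0.12. Clcn3, Clcn4 and Clcn5 had limma adjusted p-values of 0.230, 0.190 and 0.190 against the pool. Means were below 0 in both orientations for each: -0.15, -0.14 and -0.092 in channel 1, and -0.23, -0.22 and -0.25 in channel 2. Their family median was -0.18.

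Clic3 averaged 0.054 ± 0.047 and Clic4 -0.16 ± 0.28. Clic4 was 0.046, -0.077, -0.048 and -0.57 in mice 1 to 4, so mouse 4 alone lay far below 0. With the knockout RNA in channel 2 it averaged -0.31, and in channel 1 -0.0098.

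The 8 measured potassium channel genes had a median of 0.0026, with 4 means above 0 and 4 below. Besides Kcnk5, the lowest means were those of Kcnn4, a calcium-activated channel, at -0.11 ± 0.18, and Kcnj16, a basolateral channel of the distal nephron, at -0.11 ± 0.15. Kcnj16 read 0.050, -0.012, -0.23 and -0.25 in mice 1 to 4. Kcnt1 averaged 0.094 ± 0.20. Kcnn1, Kcna6, Kcnj12 and Kcnh2 averaged 0.063, 0.036, 0.0076 and -0.0023. None passed the test against the pool.

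All 4 measured sodium channel genes had means above 0. Scn2b, an accessory subunit known from neurons, was 0.078, 0.071, 0.25 and 0.44 in mice 1 to 4, with a mean of 0.21 ± 0.17 (SD, n = 4) and a limma adjusted p of 0.186. It was 0.21 in each orientation, and every mouse was above 0. Scnn1a, the alpha subunit of the epithelial sodium channel of the collecting duct, was 0.15, -0.095, 0.14 and 0.23, with a mean of 0.11 ± 0.14. Scn3b and Scn8a averaged 0.015 and 0.0025.

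Trpm2, a calcium-permeable channel, averaged -0.15 ± 0.22, with 0.045 in channel 1 and -0.35 in channel 2. Its channel 2 value drew on a reading of -1.21 on array 1 of mouse 3, where arrays 2 and 4 read 0.32 and 0.30. Trpv4, an osmosensitive channel of the tubule, averaged 0.050 ± 0.090. Cacnb1 was above 0 in all 4 mice (0.10, 0.0079, 0.23 and 0.10; mean 0.11 ± 0.091), and Cacng4 averaged 0.18 ± 0.28, with 0.56 in mouse 2, where single arrays read 1.74 and -1.27. Cacna2d1 and Cacnb2 averaged -0.085 and 0.034. None passed the test against the pool.

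**Figure D4:**
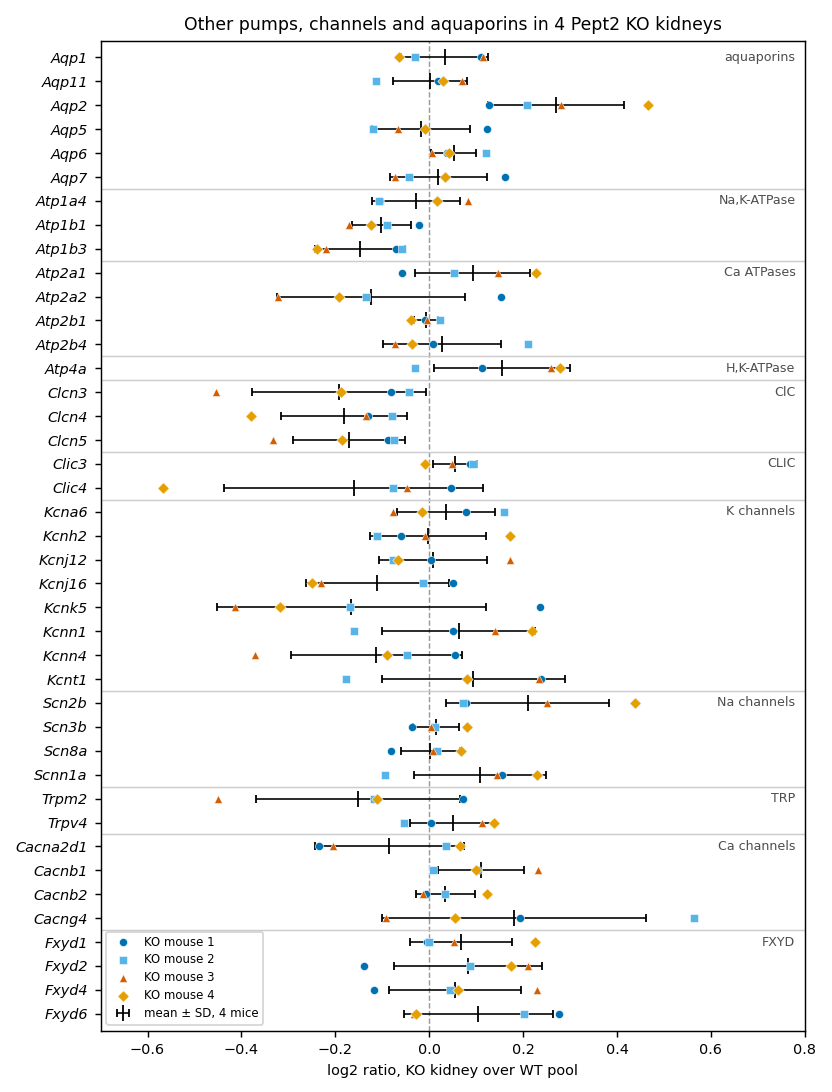
Log2 ratio of knockout kidney over wild-type pool (horizontal axis) for the 41 members other than the proton pump, by family. Symbols are the 4 mice and bars are the mean ± SD of the mice. All mice of Aqp2, Scn2b, Cacnb1 and Aqp6 lie above 0, and all of Clcn3, Clcn4, Clcn5, Atp1b1 and Atp1b3 lie below 0.

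Genes of the pathways around these members were counted from lists written by hand. No gene of these 5 lists passed the test against the pool in the reported fit. Of the acid-base transport genes, 12 of the 13 measured had means above 0, with a median of 0.082. The list median was 0.11 with the knockout RNA in channel 1 and 0.017 with it in channel 2, so it rested mostly on 1 orientation. Car14, a membrane carbonic anhydrase of the proximal tubule, averaged 0.22 ± 0.12 and the ammonia channel Rhcg 0.094 ± 0.029 (SD, n = 4 each), both above 0 in all mice. Slc26a4, the chloride-bicarbonate exchanger pendrin, was the 1 gene with a mean below 0 over both orientations. In channel 2 alone, Car15 (-0.11), Car12 (-0.11), Slc4a1 (-0.13) and Car2 (-0.047) of this list were below 0 as well. The vasopressin and water channel trafficking list had 6 of 16 measured means above 0, among them Ap2m1, an endocytic adaptor subunit, at 0.21, while Rab11a, a recycling endosome GTPase, averaged -0.21 over 2 probes. The Rab11a probe with a value on all 16 arrays read -0.35 and passed the threshold, at a limma adjusted p of 0.0168 among such probes and 0.037 with 1 probe per gene. With the mouse as a random block, where 467 of 6191 genes passed it, Rab11a (-0.23), Car14, Gaa, Slc9a3r1 and Ap2m1 did too. The salt transport list was split 7 to 7, with Cldn19, a tight junction protein of the loop of Henle, at -0.19 and Slc9a3r1, a scaffold of the proximal tubule brush border, at 0.19. The 6 measured partners of the proton pump had 2 means above 0, with Rogdi at 0.10 and Oxr1 at -0.10. Of 20 measured lysosomal proteins 11 had means above 0, with a median of 0.00070, and the highest were Gaa (0.18 ± 0.10) and Ctsa (0.16 ± 0.10). Of the marker lists of kidney cells, means were below 0 for 3 of 3 loop and distal tubule, 3 of 3 podocyte, 5 of 6 endothelial and 8 of 9 smooth muscle and fibroblast genes, and above 0 for 5 of 10 proximal tubule genes. One of these passed the test against the pool: Slc22a8, an organic anion transporter of the proximal tubule, at 0.48 ± 0.11 (SD, n = 4; limma adjusted p = 0.0149). Umod, of the loop and distal tubule list, had a mean of only -0.0047. It read -0.14, -0.33, 0.19 and 0.27 in mice 1 to 4 (limma F test adjusted p = 0.0125). Leukocyte markers were above 0 for 6 of 9, erythroid for 2 of 2, adrenal for 1 of 1, seminal vesicle and epididymis for 1 of 2 and adipose for 0 of 3. Their part in the ratios of the members was not tested.

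No member and 0% of the 6191 genes passed limma's dye test at the adjusted threshold of 0.05. Before adjustment, 13 members lay under 0.05, beside 19.5% of all genes. With the knockout RNA in channel 1, 31 members were above 0, and with it in channel 2, 23 were.

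**Figure D5:**
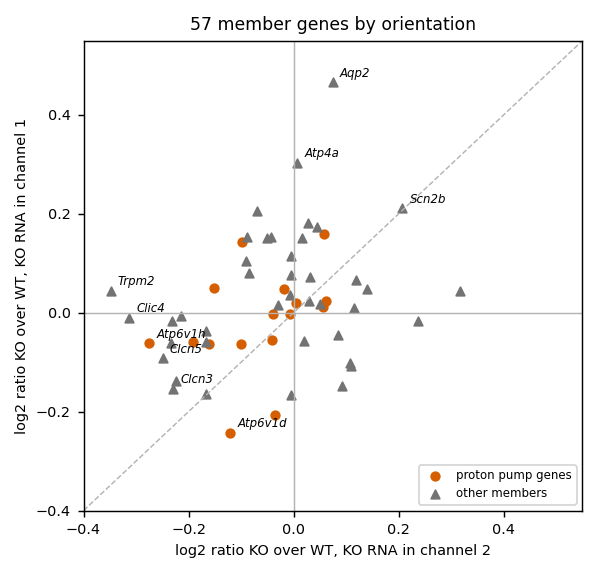
Mean log2 ratio of knockout over wild-type pool over 4 mice, with the knockout RNA in channel 1 (vertical) against channel 2 (horizontal), for 57 members. The dashed line marks equal values. Aqp2 lies at 0.47 and 0.074, Scn2b near the line at 0.21 and 0.21, and the 3 ClC genes below 0 on both axes.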

How the data were processed

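Total RNA of 4 Pept2-/- right kidneys and 1 pool of 5 wild-type right kidneys was hybridised to 16 arrays with a pair of dyes. Per the labels, slides were quantified in GenePix Pro 3.0, background was subtracted and the array median ratio was set to 1. The authors deposited log2 ratios between the channels, and spot intensities were not used here. That the base is 2 was worked out from repeated values: 46.5% of 720 distances matched log2 of whole-number fractions within 2e-06, against 0% for natural and decimal logarithms.

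Ratios were signed to knockout over wild type, centred on each array's median and averaged per orientation, then per mouse. Probes with a value in both orientations of every mouse were kept. Genes with such a probe were tested (6191), as the mean of their kept probes. The ratio against 0, the F test between mice with a dye term and the dye test used limma 3.58.1 in R 4.3.3, two-sided, with Benjamini-Hochberg adjustment over all genes. Named genes were Slc15a2, Aqp2, all Atp6 genes, up to 4 genes per family and 2 per list by smallest p, and members past a threshold. Others, such as Foxi1, Car2, Rhbg, Slc22a8 and Svs5, were picked with their values in view. The members and lists were chosen with earlier results of these data known. Alternatives are given in the closing section.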

Additional observations from a re-analysis of the deposited data

How the results depend on the processing

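Every setting listed here gave 0 members past the adjusted threshold against the pool, except the 16 arrays with the mouse as a random block, which gave 4: Aqp2 at 0.27 (adjusted p = 0.037), Scn2b, Clcn4 and Clcn5. The within-mouse correlation there was 0.014, so technical repeats counted almost as separate mice. Among all genes, 13 in the reported fit, the count called was 40 over probes with a value on all 16 arrays, 2 over probes with at least 1 value in every mouse, 8 and 3 with the knockout RNA in channel 1 and in channel 2 only, 4 on arrays 1 and 2, 8 on arrays 3 and 4, 467 with the random block, and 3 to 10 with 1 mouse left out. The members that differed between mice numbered 0, 1, 1 and 2 without mice 1, 2, 3 and 4. Without array 3 of mouse 3 and array 1 of mouse 4, a setting chosen after seeing the data, 1 of 52, Kcnk5, was called. Calls fell over all genes too. The F test called 45, 75 and 58 of 6191 genes without mice 1, 2 and 3, against 157 in the reported fit. It called 100 of 5709 genes without the 2 arrays. Atp6v1h gave a limma adjusted p of 0.0713 with arrays scaled to one spread. The random block, the filter for values on all 16 arrays and the choice of 1 probe per gene also took Rab11a past the threshold. The median of the 16 proton pump genes ran from -0.068 to -0.016 with 1 mouse left out, and that of the V1 genes from -0.11 to -0.031. The turned signs below belong to named genes that were not called against the pool, and the cause was not tested. With the knockout RNA in channel 2 only, the sign turned for Atp6v0d1 (-0.099), Atp6v1f (-0.018), Aqp1 (-0.088), Atp1a4 (0.092), Clic3 (-0.044), Scn3b (-0.0064), Trpv4 (-0.051), Fxyd1 (-0.070), Fxyd4 (-0.0055), Ctsa (-0.0024) and Car2 (-0.047). With the knockout RNA in channel 1 only, the sign turned for Atp6v1b2 (0.050), Aqp7 (-0.045), Atp2b1 (0.016), Scn8a (-0.10), Trpm2 (0.045) and Cacnb1 (-0.017). On arrays 1 and 2 only, the sign turned for Atp6v1b2 (0.025), Atp6v1c2 (0.079), Atp6v1e1 (0.019), Atp6v1f (-0.040), Atp2b4 (-0.0063), Scn8a (-0.033) and Cacnb2 (-0.044). Without centring, the sign turned for Atp6v1c2 (0.0048) and Atp2b1 (0.0028). With arrays scaled to one spread, the sign turned for Atp6v1c2 (0.0061) and Atp6v1e1 (0.0087). Without the 2 most correlated arrays, the sign turned for Atp6v1c2 (0.0073), Aqp7 (-0.0088) and Foxi1 (-0.018). Over probes with a value on all 16 arrays, the sign turned for Atp2b1 (0.0035). On arrays 3 and 4 only, the sign turned for Atp2b1 (0.031). With 1 probe per gene, the sign turned for Atp2b1 (0.0035). With the mouse as a random block, the sign turned for Scn8a (-0.0078). Leaving out 1 mouse at a time turned the sign for Atp6v0b (-0.028 to 0.039), Atp6v1c2 (-0.053 to 0.068), Atp6v1e1 (-0.081 to 0.031), Atp6v1f (-0.0056 to 0.048), Aqp7 (-0.027 to 0.051), Atp2b4 (-0.034 to 0.060), Atp2b1 (-0.017 to 0.0035), Scn3b (-0.0070 to 0.032), Scn8a (-0.019 to 0.031), Fxyd4 (-0.0033 to 0.11), Foxi1 (-0.11 to 0.16) and Car2 (-0.052 to 0.10). Limits: 4 mice, 1 wild-type pool and blank spots limit the precision of every ratio, and spot brightness was not used, so dim spots were not set apart. Array repeats in the F test are technical. No paired analysis was possible because there is 1 group of mice.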
